A study of Mus musculus with 6 samples.

Results

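Neural stem cells (NSCs) of the embryonic mouse cortex were examined for 9 genes that set when a progenitor becomes a neuron. They are *Neurog2* and *Neurod1*, which encode neurogenic transcription factors with a basic helix-loop-helix (bHLH) domain, *Insm1*, which encodes a zinc finger repressor of the same pathway, the inhibitors *Id1*, *Id2*, *Id3* and *Id4*, and *Tcf4* and *Tcf12*, which encode E proteins. The genes were taken by symbol, and all 9 were found among the 32493 genes counted and all 9 passed the filter on low counts, which left 16710 tested genes. NSCs were grown from E14.5 embryos for 3 generations. Embryos of both genotypes had floxed miR-151 (fl/fl). Those called cko also had Emx1-IRES-Cre, a Cre active in dorsal telencephalic cells, and those called ctrl, given as wt in the labels, had no Cre. The cells came from the walls of the lateral ventricles, and the share of cells without recombination in a cko culture was not measured here. Of the 3 cko and 3 ctrl columns, that of ctrl replicate 2 equalled the rounded-up mean of ctrl replicates 1 and 3 in 32493 of 32493 genes, so 3 cko and 2 ctrl libraries were compared.

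bHLH activators such as NEUROG2 bind the E-box of DNA as a dimer with an E protein. ID proteins have the helix-loop-helix but no basic region, so they pair with E proteins and hold them off DNA. In the developing cortex, ID proteins and the HES repressors of the Notch pathway keep progenitors undifferentiated, and NEUROG2 starts the neurogenic programme that INSM1 and NEUROD1 continue. BMP signals through SMAD proteins are a main inducer of the *Id* genes. *Tcf4* here is the E protein gene, not the Wnt effector that is sometimes given the same name.

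The promoters of these genes show where E-boxes lie and where they do not. Promoter sequences of RefSeq on GRCm38.p6, from 250 bases before to 50 after the start, were at hand for 6 of the 9 genes (*Neurog2*, *Neurod1*, *Id2*, *Id3*, *Id4* and *Tcf12*). They were searched on both strands for the E-box CANNTG, its form CAGCTG, the GC-rich SMAD element GGCGCC and the HES site CACGNG, and the E-box and the HES site overlap at CACGTG. Each line gives 30 bases around a match, 5′ to 3′ on the strand of the gene, with the match in capitals. These matches are shown because *Id2* rose in cko NSCs and *Id4* varied most between libraries, with the E-boxes of *Tcf12* and *Neurod1* beside them.
*Id2* E-box (chr12:25096271-25096300, minus strand): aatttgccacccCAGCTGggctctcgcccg
*Id2* SMAD element (chr12:25096306-25096335, minus strand): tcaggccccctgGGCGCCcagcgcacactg
*Id4* SMAD element (chr13:48260956-48260985, plus strand): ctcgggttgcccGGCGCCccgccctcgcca
*Tcf12* E-box (chr9:72112040-72112069, minus strand): agatgctgccCAGCTGcgtccccgtcgcgg
*Neurod1* E-box (chr2:79456857-79456886, minus strand): gggaagacCATATGgcgcatgccggggagg

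The *Id2* window held both an E-box of the form CAGCTG and a SMAD element, while the windows of *Id3* and *Neurog2* held none of the 4 motifs. *Tcf12* has 3 promoter entries, and the line shows the CAGCTG match of the first. The second *Tcf12* window held 2 E-box matches and the third held 1. The *Neurod1* window also held 2 HES site matches, and the first and second *Tcf12* windows held 1 each. Of all 32851 promoter windows, 72.3% held the E-box, 16.3% its form CAGCTG, 11.9% the SMAD element and 27.5% the HES site. The matches are a description of letters in these windows.

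The libraries held 17883796 to 23335736 counts. A level of 3 counts, set as the floor, corresponded to 0.129 to 0.168 counts per 1e6 reads counted (CPM). All values are CPM normalized by the TMM method of edgeR, and errors are SD over libraries. The paper states that the cko and ctrl NSCs came from littermates, but not which libraries share a litter. The labels do not say whether the libraries of a genotype came from separate embryos or cultures, so p-values measure only the spread between these samples. NSC markers were present, with *Sox2* at 583 and 556 normalized CPM in ctrl and 607 to 626 in cko libraries. *Nes* was at 471 and 537 in ctrl and 874 to 1068 in cko libraries. Of 10 NSC markers, 4 were higher in cko (*Nes*, *Prom1*, *Hes5* and *Notch1*), 1 was lower (*Slc1a3*) and 5 were not called, by the edgeR test described below. The ctrl libraries stood apart from each other. The X-linked *Xist* was at 2889 and 2557 normalized CPM in ctrl against 787 to 894 in cko libraries. All 4 of 4 Y-linked genes were higher in cko. The sex makeup of the cells thus differed between the genotypes, and sex and genotype cannot be told apart in these libraries. The part of sex in the results below was not tested.

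In cko NSCs, 2 of the 9 genes, *Id2* and *Tcf4*, were higher and none was lower at a Benjamini-Hochberg adjusted p under 0.05 over all tested genes (edgeR, quasi-likelihood test). Among all tested genes, 7.86% were called higher and 8.57% lower by this rule. No gene of the 9 was lower at an unadjusted p under 0.05 either, nor in DESeq2. The fold change was positive in 8 genes and negative in *Id1*, and its median was 0.38 on the log2 scale against -0.003 over all tested genes. None of the 9 passed the threshold of the study, a log2 fold change beyond 0.9 with an unadjusted p under 0.01, which 2.39% of all genes passed upward and 4.17% downward. The genotypes did not overlap in 6 of the 9 genes, all higher in cko NSCs, whereas of all tested genes 49.7% did not overlap, 25.4% with cko higher and 24.3% with cko lower. Reads from bulk cultures do not tell fewer cells of a type from less RNA per cell.

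**Figure D1:**
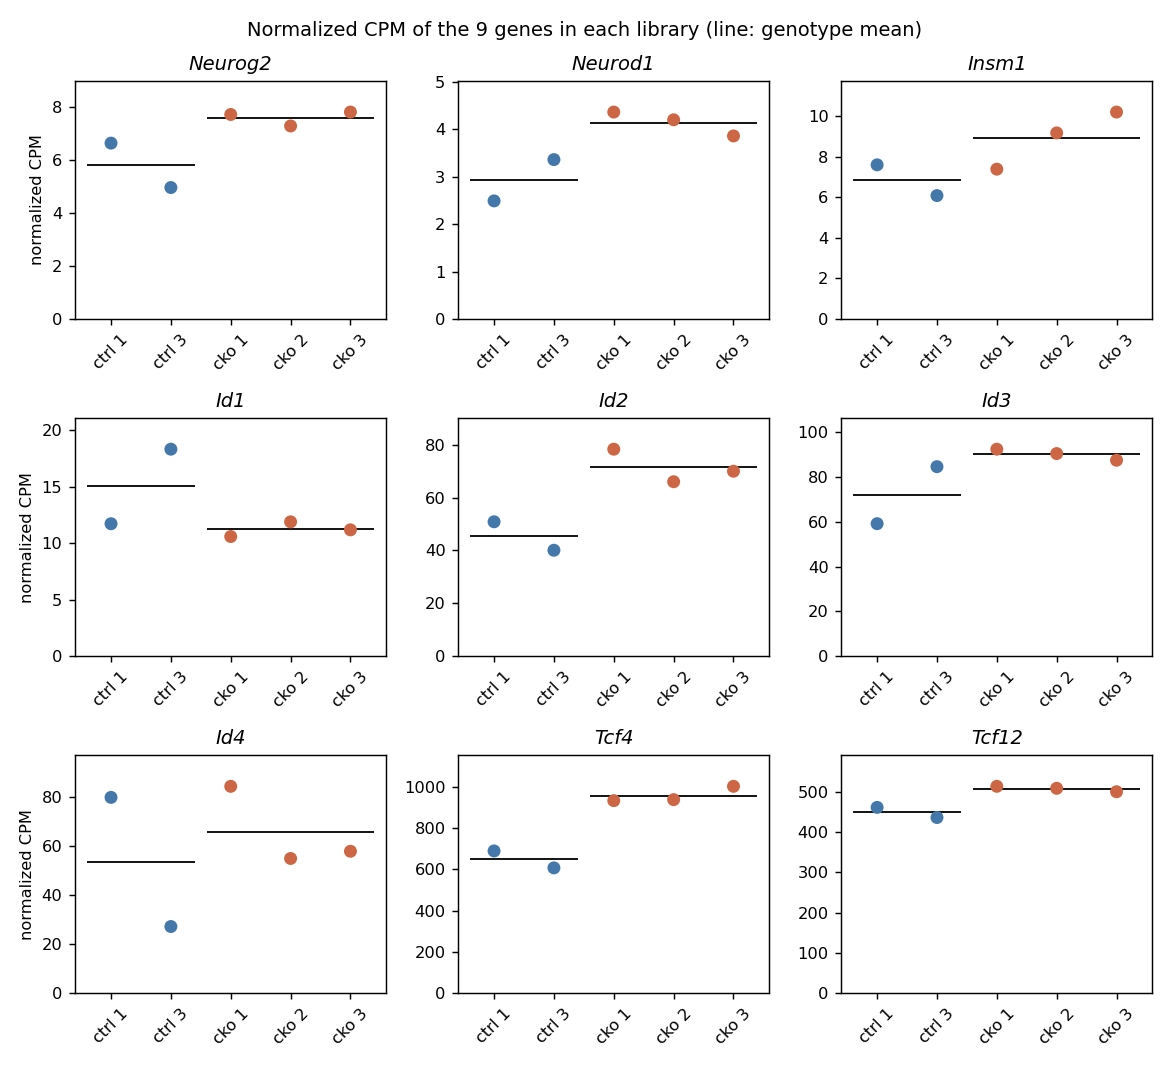
Normalized CPM (vertical axes, from 0) of the 9 genes in the 2 ctrl (blue) and 3 cko (orange) libraries, with a line at each genotype mean. All cko libraries lay above both ctrl libraries for *Neurog2*, *Neurod1*, *Id2*, *Id3*, *Tcf4* and *Tcf12*, and the genotypes overlapped for *Insm1*, *Id1* and *Id4*.

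**Figure D2:**
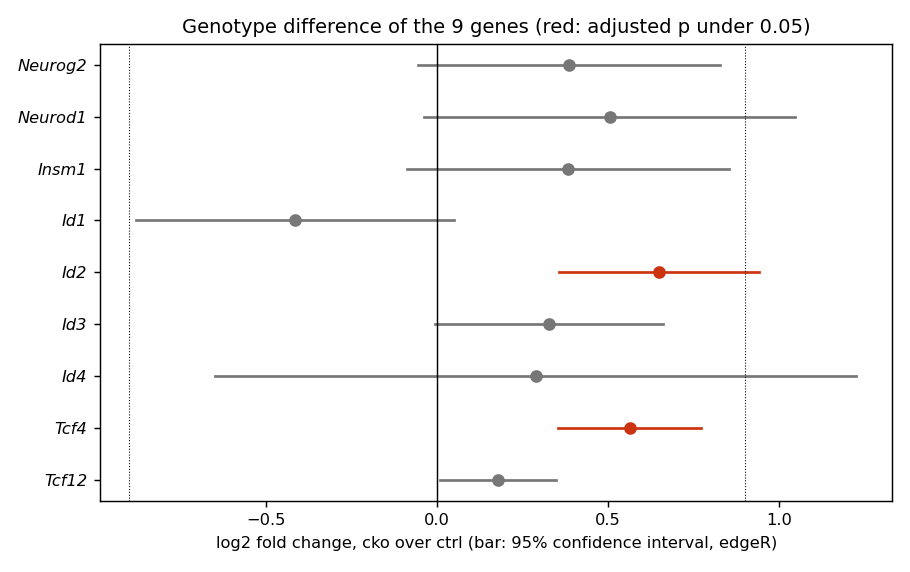
Log2 fold change of cko over ctrl NSCs (horizontal axis) for each gene, with its 95% confidence interval from edgeR. Dotted lines mark the fold change of 0.9 used by the study. The intervals of *Id2* (0.36 to 0.94) and *Tcf4* (0.35 to 0.77), in red, are those of the genes with an adjusted p under 0.05.

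*Neurog2* (ENSMUSG00000027967, chromosome 3, 127633135 to 127635631 on GRCm38) encodes the proneural factor of excitatory cortical neurons. The ctrl libraries gave 6.64 and 4.96 normalized CPM, and the cko libraries gave 7.72, 7.29 and 7.81. Every cko library lay above both ctrl libraries, yet the gene had only 93 to 170 counts per library. Counting error alone gives ctrl library 1 an exact 95% Poisson interval of 5.63 to 7.78, which holds the values of cko libraries 1 and 2. Its log2 fold change of 0.39 (standard error 0.19, 95% interval -0.05 to 0.83) did not pass the test (adjusted p = 0.203 in edgeR).

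*Neurod1* (ENSMUSG00000034701, chromosome 2, 79452521 to 79456751), a bHLH gene of newborn neurons, had the fewest counts of the 9, 57 to 98 per library. Its level was 2.49 and 3.36 normalized CPM in ctrl libraries 1 and 3 and 4.36, 4.20 and 3.86 in cko libraries 1, 2 and 3. The cko libraries lay above the ctrl libraries, with ctrl library 3 close to the lowest of them. Its log2 fold change was 0.51 (standard error 0.23, 95% interval -0.04 to 1.05, adjusted p = 0.180 in edgeR). With all 6 columns, the averaged one included, the adjusted p was 0.0432 in edgeR. The averaged column follows from the other 2 ctrl columns and narrows the ctrl spread, so that p-value overstates the evidence. The gene is annotated within the span of *Cerkl* on the same strand, which had 1 to 7 counts.

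*Insm1* (ENSMUSG00000068154, chromosome 2, 146221921 to 146225020) encodes a zinc finger repressor that promotes the formation of basal progenitors. It reached 7.60 and 6.08 normalized CPM in ctrl and 7.39, 9.17 and 10.2 in cko libraries. The genotypes overlapped, since cko library 1 lay below ctrl library 1. It had a log2 fold change of 0.38 (95% interval -0.09 to 0.85, adjusted p = 0.234 in edgeR). All 3 neurogenic genes thus had fold changes above 0 and none passed the test.

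*Id2* (ENSMUSG00000020644, chromosome 12, 25093799 to 25097140) was the *Id* gene that rose. Ctrl libraries 1 and 3 gave 50.8 and 40.1 normalized CPM, cko libraries 1, 2 and 3 gave 78.3, 66.0 and 70.0, and the lowest cko library lay well above the higher ctrl library. The means were 45.5 ± 7.62 (SD, n = 2) in ctrl and 71.4 ± 6.29 (SD, n = 3) in cko NSCs, 1.57-fold higher (log2 0.65, standard error 0.13, adjusted p = 0.0152 in edgeR). Without cko library 2 the adjusted p was 0.0525 and without cko library 3 it was 0.0691, while the log2 fold changes of 0.70 and 0.66 stayed close. Across the whole table the genes called went from 1314 higher and 1432 lower to 317 and 416 without cko library 2.

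*Id3* (ENSMUSG00000007872, chromosome 4, 136143497 to 136145755) had the highest level of the *Id* genes in reads per kilobase. Its normalized CPM was 59.2 and 84.7 in ctrl and 92.5, 90.5 and 87.5 in cko libraries. The cko libraries lay within 1.06-fold of each other, and ctrl library 3 lay just below them while ctrl library 1 lay far below. Over both ctrl libraries the log2 fold change was 0.33 (standard error 0.14, adjusted p = 0.159 in edgeR). It was 0.61 against ctrl library 1 alone (adjusted p = 0.00202) and 0.08 against ctrl library 3 alone (adjusted p = 0.526), so that the choice of the ctrl library decided the call. In fits with a single ctrl library that library is assumed to vary as the cko libraries do.

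*Id1* (ENSMUSG00000042745, chromosome 2, 152736251 to 152737410) was the single gene of the 9 with a fold change below 0. Ctrl libraries 1 and 3 gave 11.7 and 18.3 normalized CPM, against 10.6, 11.9 and 11.2 in cko libraries 1, 2 and 3. Ctrl library 1 lay among the cko libraries and ctrl library 3 alone stood above them. The log2 fold change was -0.42 (standard error 0.20, 95% interval -0.88 to 0.05, adjusted p = 0.194 in edgeR), against ctrl library 1 alone -0.06, and against ctrl library 3 alone -0.72 (adjusted p = 0.00890).

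*Id4* (ENSMUSG00000021379, chromosome 13, 48261228 to 48266026) varied most. Ctrl libraries 1 and 3 gave 79.8 and 27.2 normalized CPM, a 2.94-fold difference, and the cko libraries gave 84.3, 54.9 and 57.8. The genotypes overlapped, with the cko libraries on both sides of ctrl library 1. A log2 fold change of 0.29 had a standard error of 0.40 (95% interval -0.65 to 1.23, adjusted p = 0.663 in edgeR), and it turned to -0.28 against ctrl library 1 alone (adjusted p = 0.375) and to 1.26 against ctrl library 3 alone (adjusted p = 0.00643). The astrocyte gene *Gfap* was at 1008 and 178 normalized CPM in ctrl libraries 1 and 3 and at 298, 86.7 and 122 in cko libraries 1, 2 and 3, so both genes were higher in library 1 than in the others of each genotype. The part of astrocyte-like cells in the *Id4* values was not tested. Antisense genes over the *Id4* start had 4 to 23 counts, and the strand used in counting is not stated.

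**Figure D3:**
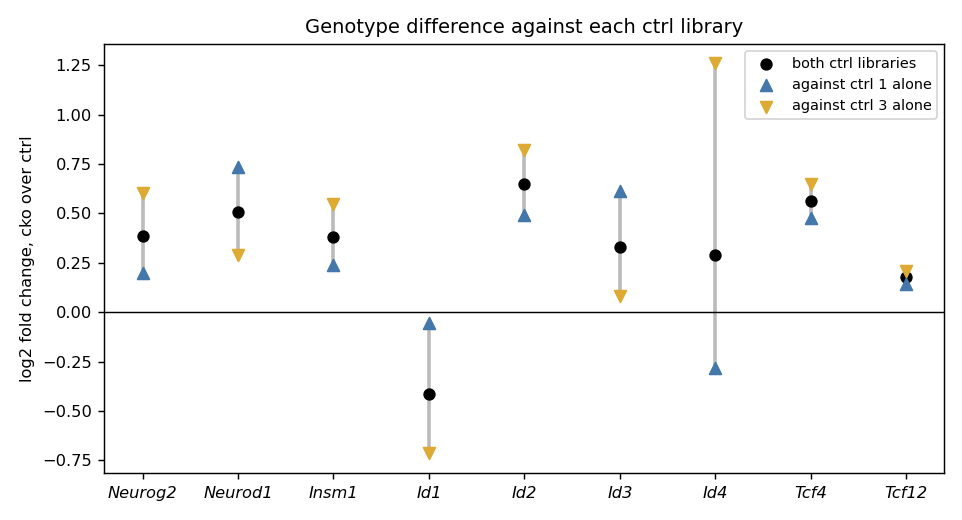
Log2 fold change of cko over ctrl NSCs (vertical axis) against both ctrl libraries (black circles), against ctrl 1 alone (blue triangles) and against ctrl 3 alone (yellow triangles). The pairs of triangles lie on both sides of 0 for *Id4*, and they are closest together for *Tcf12* (0.14 and 0.21) and *Tcf4* (0.48 and 0.65).

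*Tcf4* (ENSMUSG00000053477, chromosome 18, 69343356 to 69689079) encodes the E protein E2-2, a partner of proneural factors in cortical progenitors. It rose from 689 and 607 normalized CPM in the ctrl libraries to 932, 937 and 1002 in the cko libraries. Both genotypes were tight, and the gap between them was larger than the spread within either. The means were 648 ± 58.0 (SD, n = 2) and 957 ± 38.7 (SD, n = 3), 1.48-fold higher in cko (log2 0.56, standard error 0.089, adjusted p = 0.00777 in edgeR). The log2 fold change lay between 0.48 and 0.65 in all 12 alternatives, and the adjusted p rose to 0.0565 without cko library 2 and to 0.0598 without cko library 3.

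*Tcf12* (ENSMUSG00000032228, chromosome 9, 71842688 to 72111871) encodes the E protein HEB. Its normalized CPM was 461 and 436 in ctrl against 513, 508 and 499 in cko libraries. The genotypes did not overlap, but the difference was small, a fold change of 1.13 (log2 0.18, standard error 0.073, 95% interval 0.01 to 0.35). It did not pass the correction (adjusted p = 0.139 in edgeR, unadjusted p = 0.0426). With all 6 columns the adjusted p was 0.0235 in edgeR, but the averaged column is not a separate library and that p-value overstates the evidence. *Gm38057*, annotated inside *Tcf12* on the same strand, had 122 to 381 counts of its own. The E protein gene *Tcf3*, not among the 9, had 140 and 149 normalized CPM in ctrl and 141, 149 and 146 in cko libraries (log2 fold change 0.01, 95% interval -0.16 to 0.18, adjusted p = 0.944 in edgeR).

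Levels were compared between genes per length, as CPM per kilobase of merged exons (RPKM). In ctrl NSCs the order was *Id3* (40.2 ± 10.1 RPKM), *Tcf12* (28.9 ± 1.14), *Tcf4* (23.7 ± 2.12), *Id2* (18.6 ± 3.12), *Id4* (13.9 ± 9.66), *Id1* (12.9 ± 4.02), *Neurog2* (2.60 ± 0.533), *Insm1* (2.21 ± 0.346) and *Neurod1* (1.07 ± 0.226) (SD, n = 2). The ctrl ranges overlapped between *Id2* and *Id4*, between *Id4* and *Id1* and between *Neurog2* and *Insm1*, so these neighbours are not separated. In cko NSCs *Tcf4* (34.9 ± 1.41 RPKM) stood above *Tcf12* (32.6 ± 0.436) (SD, n = 3), and there the ranges of *Neurog2* and *Insm1* alone overlapped. The place of the E proteins depends on the length used, since merged exons of *Tcf4* span 27382 bases and its longest transcript 8577. Over the longest transcripts *Tcf4* (75.5 ± 6.76) and *Tcf12* (71.1 ± 2.82) stood above *Id3* (56.3 ± 14.1) in ctrl NSCs. By level per merged exon, *Id3* stood above 93.8% of tested genes in ctrl NSCs and *Neurod1* above 23.6%.

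The sum of the 4 *Id* genes was 84.7 and 86.5 RPKM in the ctrl libraries and 115, 102 and 102 in the cko libraries. The ctrl sums were nearly equal although *Id4* gave 24.5% of the sum in ctrl library 1 and 8.15% in ctrl library 3, and *Id3* gave 39.0% and 54.6%. The sum of the E protein genes *Tcf3*, *Tcf4* and *Tcf12* was 89.6 and 87.0 RPKM in ctrl and 102, 104 and 105 in cko libraries, so the sums of both groups were higher in every cko library. The ratio of the *Id* sum to the E protein sum was 0.970 ± 0.0346 (SD, n = 2) in ctrl and 1.03 ± 0.0837 (SD, n = 3) in cko NSCs, and the libraries of the genotypes overlapped. The share of *Tcf4* in the E protein sum was 28.1% and 25.5% in ctrl and 33.3%, 33.0% and 34.9% in cko libraries. Its size depends on the length used, since over coding length it was 54.5% and 52.0% in ctrl and 59.8% to 61.8% in cko libraries. The share of *Id2* in the *Id* sum was 24.6% and 19.0% in ctrl and 28.0%, 26.5% and 28.1% in cko libraries. These sums are a description and were not tested.

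**Figure D4:**
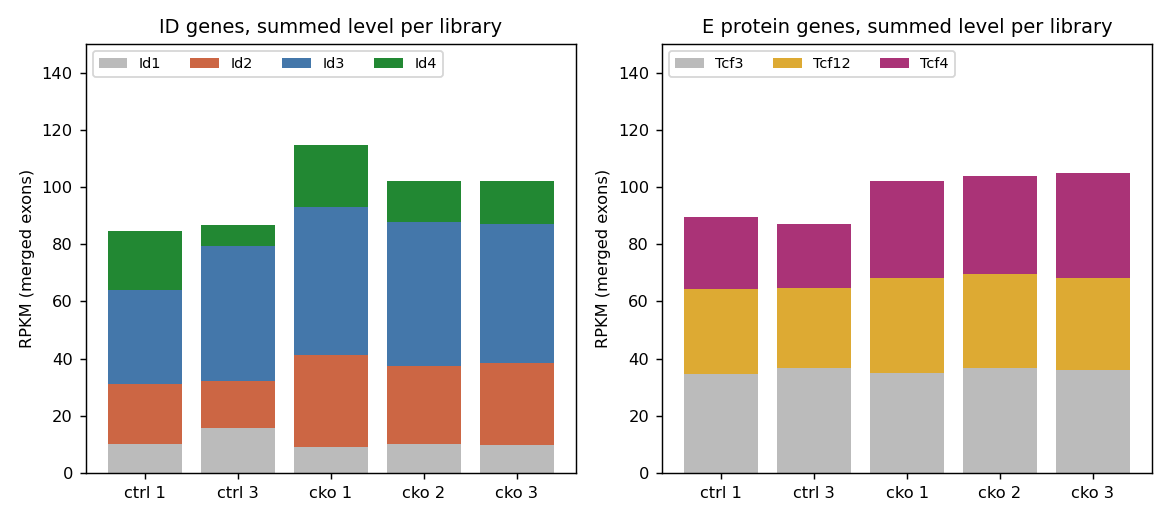
Summed RPKM over merged exons (vertical axes, from 0) of the *Id* genes (left) and of the E protein genes (right) in each library, with 1 bar per library and 1 colour per gene. The *Id* bars reach 84.7 and 86.5 in ctrl and 102 to 115 in cko libraries, and the *Id4* segment differs 2.94-fold between the ctrl bars.

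Other genes of the network were read from lists by role. Among 20 neural bHLH activators, *Neurog2* and *Neurod1* included, 16 were in the table and 9 were tested, and 3 of these were higher and none lower in cko NSCs (adjusted p under 0.05 in edgeR), none was lower at an unadjusted p under 0.05 or in DESeq2, and the median log2 fold change was 0.51. This median was 0.29 without ctrl library 1, 0.63 without ctrl library 3 and 0.38 in DESeq2. *Olig1* and *Olig2*, bHLH genes of the oligodendrocyte lineage and of ventral progenitors, had log2 fold changes of 0.63 (adjusted p = 0.0108) and 0.38 (adjusted p = 0.0444). *Olig1* had 1097 and 1351 normalized CPM in ctrl and 1809 to 1994 in cko libraries. *Tal2* was called with few reads, 4 counts over the ctrl and 38 over the cko libraries, a ratio of 6.28 with an exact counting interval of 2.26 to 24.2. *Neurog1* and *Atoh1* had at most 1 count in any library. The call of *Olig2* was lost in 7 of 12 alternatives. Among them were other size factors (adjusted p = 0.0503 in edgeR) and at least 10 counts in every library (0.0519). The call of *Olig2* was also lost without any 1 of ctrl library 1 and cko libraries 1, 2 and 3. *Olig1* was not called without cko library 2 or 3 (adjusted p = 0.0812 and 0.0686 in edgeR). *Tal2* was called in none of the fits that left out a library (adjusted p 0.0581 to 0.111).

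Of 11 genes of the HES, HEY and BHLHE families, listed together as repressors, 9 were tested, 2 were higher, 2 were lower and the median log2 fold change was -0.02. Without ctrl library 3 this median was 0.43, and without ctrl library 1 it was -0.10. The Notch effector genes moved in both directions. *Hes5* rose (log2 fold change 0.93, adjusted p = 0.00107), as did *Heyl* (1.51, adjusted p = 0.0287), whereas *Hes1*, also a Notch effector, fell (-1.04, adjusted p = 0.00588). *Bhlhe40* was lower too (-0.80, adjusted p = 0.0170). *Heyl* was not called without ctrl library 1, cko library 2 or cko library 3, nor *Bhlhe40* without cko library 1 or 2. *Hes5* had 72.8 and 69.2 normalized CPM in ctrl and 137, 140 and 129 in cko libraries, while *Hes1* had 20.1 and 26.6 against 12.1, 11.2 and 10.8. *Hey1* (log2 fold change -0.15, adjusted p = 0.446) and *Hes6* (0.19, adjusted p = 0.515) were not called, and both turned direction against ctrl library 3 alone (0.06 and -0.10). *Hes6* is also counted among the proneural targets below. Members of these families were thus called in both directions.

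Of 22 genes known as targets or followers of proneural factors, 17 were tested, with 4 higher, 3 lower and a median log2 fold change of 0.13. The sign of this median depends on the processing, with -0.071 in DESeq2, -0.071 without a filter and -0.068 in DESeq2 with all 6 columns, and it was 0.012 without ctrl library 1 and 0.046 without cko library 1. The Notch ligand gene *Dll1* rose from 144 and 117 to 208, 208 and 236 normalized CPM (log2 fold change 0.73, adjusted p = 0.00673), and *Dll3*, which encodes a ligand that does not activate Notch in neighbouring cells, fell (-0.49, adjusted p = 0.0456). The progenitor and neuron gene *Sox4* (0.62, adjusted p = 0.00431), the growth arrest gene *Gadd45g* (0.61, adjusted p = 0.00970) and the neuronal RNA-binding gene *Elavl4* (1.30, adjusted p = 0.000668) rose. The cell cycle inhibitor gene *Cdkn1c* (-0.87, adjusted p = 0.00229) and the migration gene *Dcx* (-1.51, adjusted p = 0.00486) fell. *Eomes*, the marker of intermediate progenitors that lie downstream of *Neurog2*, had 2 to 4 counts in every library. *Sox11* (0.21, adjusted p = 0.245) and *Rnd2* (-0.12, adjusted p = 0.428) were not called. The list thus held called genes in both directions, and *Dll3* was not called without ctrl library 1 or without any 1 cko library (adjusted p 0.0528 to 0.156).

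**Figure D5:**
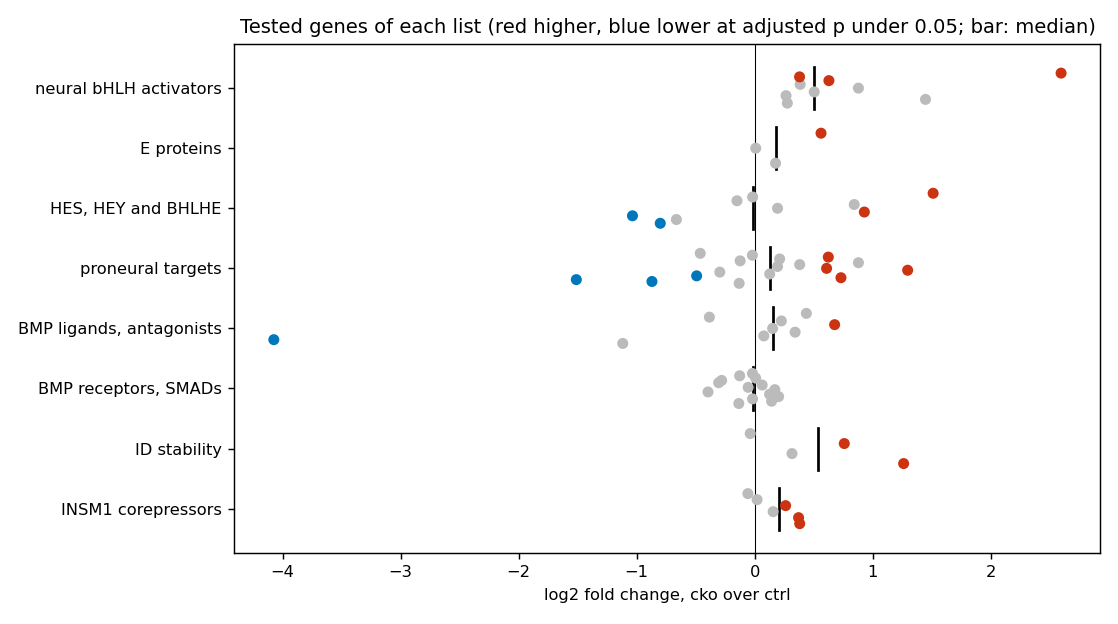
Log2 fold change of cko over ctrl NSCs (horizontal axis) for every tested gene of 8 lists, 1 point per gene, red where higher and blue where lower at an adjusted p under 0.05, with a bar at each median. The receptor and SMAD list lies between -0.39 and 0.20 with no call, and the points of *Bmp4* (-4.08) and *Tal2* (2.60) rest on few counts.

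The pathway that induces *Id* genes was covered by 2 lists. Of 15 genes for BMP receptors, SMADs and their regulators, 14 were tested and none was called in either direction in edgeR or DESeq2, while 1 was higher and 2 were lower at an unadjusted p under 0.05. Calls appeared under other settings, with 2 genes lower without a filter, 1 higher with all 6 columns in edgeR, 1 higher and 2 lower with all 6 columns in DESeq2, and 1 lower without ctrl library 1 or without cko library 1. *Smad5* was at 268 and 356 normalized CPM in ctrl and 242 to 261 in cko libraries (log2 fold change -0.30, adjusted p = 0.127), and *Bmpr2* at 234 and 236 against 262 to 268 (0.17, adjusted p = 0.128). Of the 15 genes for BMP ligands and antagonists, 9 were tested, 1 was higher and 1 lower. The antagonist gene *Chrdl1* rose from 36.5 and 41.4 to 56.1, 65.5 and 65.2 normalized CPM (0.68, adjusted p = 0.00734). *Bmp4* fell, from 26 counts over the ctrl libraries to 2 over the cko libraries, a ratio of 19.7 with an exact counting interval of 4.92 to 171, and its call was lost without cko library 2 or 3 (adjusted p 0.0578 and 0.0561). DESeq2 on the 5 libraries gave it no adjusted p, and a filter of at least 10 counts in every library left it untested. The ligand gene *Bmp7* was at 41.4 and 113 normalized CPM in ctrl libraries 1 and 3 and at 69.5, 92.1 and 82.3 in cko libraries 1, 2 and 3, and its direction turned with the ctrl library used (log2 fold change 0.98 against ctrl library 1 and -0.49 against ctrl library 3). The antagonist gene *Nbl1* (-0.38, adjusted p = 0.234) also turned direction, to 0.06 against ctrl library 3 alone.

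Genes for proteins that act on ID and INSM1 proteins were counted last. *Usp1*, which encodes the deubiquitinase that stabilizes ID proteins, rose from 46.8 and 57.9 to 76.8, 96.7 and 92.1 normalized CPM (log2 fold change 0.76, adjusted p = 0.0108), and its cofactor gene *Wdr48* did not pass the test (-0.04, adjusted p = 0.793). Of the activators of the anaphase-promoting complex, which marks ID proteins for degradation, *Cdc20* rose (1.26, adjusted p = 0.00239) and *Fzr1* lay at the threshold (0.32, adjusted p = 0.0509 in edgeR and 0.0410 in DESeq2), and 5 of 12 alternatives called it higher. *Usp1* and *Cdc20* are also cell cycle genes. Of 6 corepressor genes of INSM1, *Hdac1* (0.38, adjusted p = 0.0218), *Hdac2* (0.37, adjusted p = 0.0138) and *Kdm1a* (0.26, adjusted p = 0.0480) rose, and *Rcor2* (-0.06, adjusted p = 0.846), *Hdac3* (0.16, adjusted p = 0.228) and *Rcor1* were not called. The calls of *Usp1*, *Hdac1*, *Hdac2* and *Kdm1a* were lost without cko library 2 or 3, and that of *Kdm1a* in 8 of 12 alternatives, other size factors (adjusted p = 0.0505), no filter (0.0510) and a stricter filter (0.0507) included.

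Markers of other cells were read beside these genes. Of 8 astrocyte genes 5 were lower, with a summed level of 3153 and 2093 normalized CPM in ctrl libraries 1 and 3 and 873 to 1581 in cko libraries. Of 10 genes of the oligodendrocyte lineage 6 were lower and 2 higher, with sums of 3298 and 3892 in ctrl and 3514 to 3763 in cko libraries. *Id2*, *Id4* and *Tcf4* are also expressed in glial lineages, and the part of a changed cell makeup in their values was not tested. Of 10 neuronal genes 8 were tested, 2 were higher and 1 lower, with sums of 1341 and 1269 in ctrl and 1420 to 1483 in cko libraries. Endothelial cells, which are rich in *Id1* and *Id3*, left few reads, with a summed level over 7 genes of 4.89 and 5.60 normalized CPM in ctrl and 5.74 to 7.22 in cko libraries and *Cdh5* at 0 in all libraries. The 8 microglia genes summed to 0.131 and 1.17 in ctrl and at most 0.280 in cko libraries, with *Cx3cr1* and *Itgam* at 0, and the mural and fibroblast list to at most 22.4 in ctrl and 4.98 to 6.39 in cko libraries, with *Foxc1* lower. Of 6 markers of choroid plexus and ependyma, *Aqp1* was lower and the sum was 27.2 and 20.1 in ctrl against 19.6 to 21.5, and 4 erythroid genes summed to at most 0.961 in any library with *Hba-a1* and *Hbb-bs* at 0.

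The genes most like each of the 9 were sought by the root mean square difference between log2 profiles over the 5 libraries, each centred on its mean. Nearest to *Id2* lay *Ctnna2* (difference 0.0299) and *Gucy1a1* (0.0336), and nearest to *Tcf4* lay *Zfp462* (0.0170) and *Cttnbp2* (0.0250). *Neurog2* was closest to *Prox1* (0.00870) and *Ttc30b* (0.0134), *Id1* to *Nmnat3* (0.0173) and *Rhoq* (0.0200), and *Id3* to *Psmg3* (0.0165) and *Cfap43* (0.0193). *Insm1* was closest to *Snx7* (0.0270) and *Itprip* (0.0377), *Tcf12* to *Tmem222* (0.0124) and *Trnau1ap* (0.0127), and *Neurod1* to *Rab31* (0.0571) and *Gng3* (0.0579). *Id4* had the widest log2 range of the 9 genes (1.63), and nearest to it lay *Dnah7b* (0.0960) and *Riiad1* (0.105). These differences are not scaled to the range of a gene. With 5 libraries and 5884 to 16352 candidates per gene, such distances describe these libraries only, and none of the 9 was among the nearest of another.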

How the data were processed

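RNA-seq was run on cultured E14.5 NSCs. The authors checked reads with FastQC (0.11.5), filtered them with NGSQC (2.3.3), used HISAT2 against mm10 and deposited raw counts for Ensembl genes in 6 columns. The labels list GRCm39 as a build, and the counting tool, annotation and strand setting are not given in the sources used here. Names, lengths and gene positions are those of GENCODE M21 (GRCm38), where 31829 of 32493 IDs were found.

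Counts of 5 libraries were filtered by filterByExpr, normalized by TMM (factors 0.990 to 1.01) and tested with edgeR 4.0.16 in R 4.3.3 (quasi-likelihood, two-sided), with Benjamini-Hochberg adjustment over 16710 genes. Alternatives were DESeq2 1.42.0, other size factors and filters, all 6 columns, the replicate number as a block, other lengths and leaving out each library. Called genes are those with an adjusted p under 0.05. In each list the text names up to 3 genes called in each direction by smallest p and genes not called by highest level; *Gadd45g*, *Rcor1*, *Eomes*, *Neurog1*, *Atoh1*, *Sox2* and single markers were added after their values were seen, and some genes that the rule names are not reported here. Among like genes, those with at least 0.5 times the log2 range of the member were searched. The 9 genes and the lists were chosen with earlier results of these data known. The steps were tested on simulated counts. There edgeR called 16.3% of 98 genes changed by a log2 fold change of 0.5 and 64.6% of 96 changed by 1, among 16331 genes. Of its 85 calls, 8.24% were false. DESeq2 called 34% of 100 genes changed by 0.5 and 66% of 100 changed by 1, among 16710 genes. Of its 131 calls, 23.7% were false. In the libraries edgeR called 16.4% of tested genes, a larger share than was changed there. The share of false calls in the libraries was not tested. Intervals and floors cover counting error only. Figures were drawn with matplotlib 3.10.9.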

Additional observations from a re-analysis of the deposited data

How the results depend on the processing

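The log2 fold changes of *Neurog2*, *Insm1* and *Tcf12* kept their direction in all 12 alternatives, as did those of the other genes of the 9 except *Id4*, and no alternative called *Neurog2* or *Insm1*. With all 6 columns, 2865 genes were higher and 2794 lower in edgeR and 2564 and 2520 in DESeq2, and 4 of the 9 genes were called higher in each; *Neurod1* (0.52) and *Tcf12* (0.18) were called in edgeR, and *Id3* (0.34) and *Tcf12* (0.18) in DESeq2. The averaged column is not a separate library, so calls made with all 6 columns overstate the replication. Without a filter, 2237 genes were lower and *Id3* was called (0.32). The listed genes other than the 9 that were called lower were 12 without a filter and 11 in DESeq2 with all 6 columns, against 6, and 15 were higher. Leaving out 1 library gave 317 to 1812 higher and 416 to 2062 lower genes, 0 to 3 of the 9 called higher and 0 to 1 called lower, and 6 to 17 listed genes higher and 3 to 9 lower. Over these fits the log2 fold change ranged from -0.72 to -0.057 for *Id1*, 0.49 to 0.82 for *Id2*, 0.081 to 0.61 for *Id3*, -0.28 to 1.26 for *Id4* and 0.48 to 0.65 for *Tcf4*. The ratio of *Id* to E protein levels was 0.544 in ctrl and 0.554 in cko NSCs over the longest transcript and 0.799 and 0.787 over coding length, so its direction between genotypes depends on the length used.

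With the replicate number as a block, 918 genes were higher and 1065 lower, and *Id2* (0.71) and *Tcf4* (0.58) stayed called, while *Hdac1*, *Hdac2*, *Kdm1a*, *Olig2* and *Tal2* were not called. *Id4* had a log2 fold change of 0.57 with the block (standard error 0.20, adjusted p = 0.0889 in edgeR), against 0.29 without it. Libraries of the same number deviated together with Pearson's r of 0.143 and 0.0507 across genes, over 2 pairs, so the numbers were not taken to pair the samples. With 2 ctrl libraries their deviations mirror each other, so the 2 values of r are not separate checks.

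Among listed genes, *Tcf3* turned to -0.0077 with the block and to -0.0066 with at least 10 counts in every library and ranged from -0.041 to 0.055 when a library was left out, and *Bmp7* ranged from -0.49 to 0.98, *Hes6* from -0.10 to 0.55, *Hey1* from -0.34 to 0.065, *Nbl1* from -0.72 to 0.060, *Rcor2* from -0.30 to 0.23 and *Wdr48* from -0.11 to 0.032. The cause of these changes was not tested.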
